A study of Homo sapiens with 6 samples.

Results

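MiR-191 and miR-425 are neighbouring hairpins in an intron of DALRD3, and their 4 mature arms, hsa-miR-191-5p, hsa-miR-191-3p, hsa-miR-425-5p and hsa-miR-425-3p, were taken by name from a table of 1596 mature miRNAs. Small RNA had been sequenced from human melanoma cells treated for 24 hours with RSL3 combined with IFN-γ (3 libraries) or with RSL3 monotreatment (3 libraries). RSL3 blocks GPX4, which detoxifies lipid peroxides, and so drives ferroptosis, and IFN-γ is a cytokine that activated T cells secrete. All 6 libraries carry RSL3, no untreated cells or cells given IFN-γ alone were analysed here, and the comparison therefore asks what IFN-γ added in cells that already received RSL3. The sample labels name the cells A2058, whereas the methods of the study name A375, both established human melanoma lines, and the sources used here do not settle which was sequenced.

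A miRNA hairpin is cut from a longer primary transcript by Drosha and released from its loop by Dicer, which leaves a duplex of a 5p and a 3p arm. Argonaute keeps 1 arm as the guide that pairs with target mRNAs through its seed, bases 2 to 8, and the other arm is mostly degraded. DALRD3, the host gene, encodes a protein that binds arginine tRNAs and supports their methylation. MiR-191-5p is expressed in many tissues and is widely used as an endogenous control in quantitative PCR of miRNAs. MiR-425-5p has been described in gastric cancer cells as a target of NF-κB after interleukin stimulation, and both hairpins have been described as responsive to estrogen in breast cancer cells.

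Both hairpins lie on the minus strand of chromosome 3 of GRCh38, MIR191 at chr3:49020618-49020709 and MIR425 at chr3:49020148-49020234, with 383 bases between them. In GENCODE 29 both fall in intron 1 of 4 of the 15 annotated DALRD3 transcripts, and the other 11 transcripts do not reach them. MIR191 also lies opposite an intron of 1 transcript of NDUFAF3, an assembly factor of mitochondrial complex I that is transcribed from the plus strand. RefSeq (GRCh38.p14) gave mature sequences for 3 of the 4 arms. They are shown because the results turn on which arm of each hairpin was read, and the capitals mark the seed. MiR-191-5p is at chr3:49020672-49020694, miR-191-3p at chr3:49020631-49020652 and miR-425-3p at chr3:49020159-49020180.
hsa-miR-191-5p: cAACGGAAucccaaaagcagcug
hsa-miR-191-3p: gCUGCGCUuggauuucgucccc
hsa-miR-425-3p: aUCGGGAAugucguguccgccc
No other mature miRNA among the 2545 entries of that RefSeq table has any of these 3 seeds. In the MIR191 hairpin the 5p arm and then the 3p arm are in capitals, and the lower case letters between them form the loop.
MIR191: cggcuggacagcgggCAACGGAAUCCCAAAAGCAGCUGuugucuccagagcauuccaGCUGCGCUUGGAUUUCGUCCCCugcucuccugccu

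RefSeq lists 2 promoter windows of DALRD3, of which 1 begins downstream of both hairpins and was not searched. The start of the other lies 796 bases ahead of MIR191 and 1271 bases ahead of MIR425, and none of the 4 GENCODE transcripts that span the hairpins starts within its window. This window, from 250 bases before to 50 bases after the start, was searched on both strands for 7 motifs that interferon, NF-κB or stress pathways are known to use. The core of the interferon-stimulated response element, which 3.57% of 35116 promoter windows of that length hold, was not found in it. The letters GCGTG, a core form of the hypoxia response element, matched 4 times, and 36.5% of all windows hold at least 1 such match. The other form of that core, ACGTG (in 21.4% of windows), and the sites of AP-1 (TGANTCA, 7.71%), ATF and CREB (1.85%), NF-κB (1.91%) and the antioxidant response (13.3%) had no match. A match or its absence describes these letters in this window only.

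Counts totalled 4383940 to 5367150 in the combined treatment libraries and 4897890 to 6513382 in the RSL3 monotreatment libraries. TMM factors, which correct the totals for the weight of a few abundant miRNAs, ran from 0.944 to 1.33 with IFN-γ and from 0.861 to 0.913 without it, and levels below are TMM-scaled CPM, the read count relative to that corrected total, unless totals are named. The 7 miRNAs listed for melanocytes and melanoma summed to 94592 to 148274 CPM in the combined treatment libraries and 86433 to 116352 CPM in the monotreatment libraries. Nearly all of it was miR-146a-5p (means 114723 and 100133 CPM with and without IFN-γ), so the sum describes that miRNA rather than the list. MiR-211-5p averaged 335 CPM with IFN-γ and 286 CPM without it, miR-204-5p 169.6 CPM with IFN-γ and 286 CPM without it, and miR-514a-3p 24.3 CPM with IFN-γ and 63.8 CPM without it, while miR-506-3p, miR-508-3p and miR-509-3p were at or near 0. The 6 miRNAs of blood cells summed to 86.0 to 332 CPM in the combined treatment libraries and 102 to 169 CPM in the monotreatment libraries, and 6 miRNAs of other tissues summed to 304 to 483 CPM with IFN-γ and 264 to 1403 CPM without it. The most abundant of the blood and other-tissue miRNAs peaked in single libraries. MiR-451a (318 CPM) and miR-122-5p (174 CPM) were highest in replicate 2 of the combined treatment. MiR-1-3p (1280 CPM) was highest in replicate 3 of the monotreatment. The part of these listed miRNAs in the values below was not tested. Whether the replicates were grown as separate cultures is not stated, and the p-values therefore speak only to variation among these 6 libraries, part of which may be technical.

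MiR-425-5p was the most abundant of the 4 arms and ranked 11 of 1596 by mean level. It had 74546, 51721 and 83087 reads in the combined treatment libraries (replicates 1, 2 and 3), against 80619, 99206 and 63027 reads in the RSL3 monotreatment libraries. Scaled, these were 18009, 8833 and 13408 CPM with IFN-γ and 15903, 22179 and 11028 CPM without it. The groups overlapped, and replicate 2 gave both the lowest value of the 6, with IFN-γ, and the highest, without it.

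MiR-191-5p ranked 28 of 1596. It had 25222, 22222 and 28913 reads in the combined treatment libraries, against 28314, 20690 and 33131 reads in the RSL3 monotreatment libraries. Scaled, these were 6093, 3795 and 4666 CPM with IFN-γ and 5585, 4625 and 5797 CPM without it. The 3 monotreatment libraries lay within the range of the 3 combined treatment libraries, whose replicate 1 was the highest and replicate 2 the lowest of all 6.

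MiR-425-3p, the minor arm of its hairpin, ranked 160 of 1596. It had 874, 1377 and 1501 reads in the combined treatment libraries, against 713, 760 and 1118 reads in the RSL3 monotreatment libraries, or 211, 235 and 242 CPM with IFN-γ and 141, 170 and 196 CPM without it. It was the only arm of the 4 whose groups did not overlap, every library with IFN-γ lying above every library without it. Among all 758 miRNAs tested, 29.8% had groups that did not overlap.

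MiR-191-3p was the rarest of the 4 and ranked 426 of 1596. It had 54, 115 and 93 reads in the combined treatment libraries, against 54, 40 and 75 reads in the RSL3 monotreatment libraries, or 13.0, 19.6 and 15.01 CPM with IFN-γ and 10.7, 8.94 and 13.1 CPM without it. Replicates 2 and 3 with IFN-γ were the highest, and replicate 1 with IFN-γ lay just below replicate 3 without it, so the groups overlapped.

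**Figure D1:**
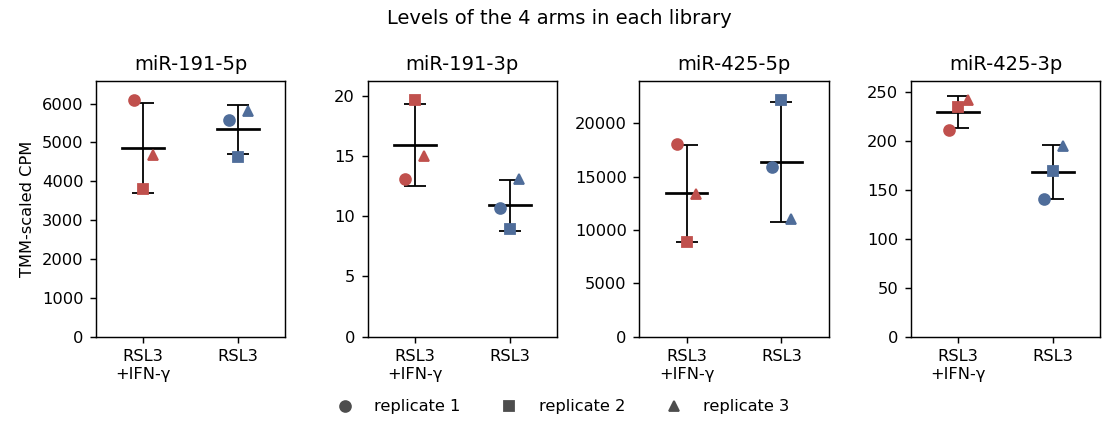
TMM-scaled CPM of each arm in the RSL3+IFN-γ libraries (red, left) and the RSL3 libraries (blue, right), with a symbol per replicate number and black lines for the mean and SD of 3 libraries. MiR-425-3p, at 211 to 242 CPM with IFN-γ and 141 to 196 CPM without it, is the only arm with no overlap.

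The order of the 4 arms was the same in every library, miR-425-5p, then miR-191-5p, then miR-425-3p, then miR-191-3p. No neighbours in that order overlapped over the 6 libraries, since the lowest miR-425-5p value was 8833 CPM and the highest miR-191-5p value 6093 CPM. Each read stands for a whole miRNA, so no length correction applies, but adapters join the ends of different miRNAs with different yields, and the order is one of reads rather than of molecules. The 4 arms together held 2.30%, 1.71% and 2.12% of the reads in the combined treatment libraries, against 1.86%, 2.46% and 1.49% in the RSL3 monotreatment libraries. The mean shares were 2.04% ± 0.299 with IFN-γ and 1.94% ± 0.489 without it (SD, n = 3 each), a difference of 0.101 percentage points that did not exceed the spread (exact permutation test, two-sided, p = 0.8, smallest possible 0.1). With TMM-scaled counts the difference was −0.337, and it was also negative without replicate 3 of the monotreatment (−0.12) or replicate 1 of the combined treatment (−0.03).

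None of the 4 arms passed the test for an effect of IFN-γ, in edgeR's quasi-likelihood test with Benjamini-Hochberg adjustment over all 758 miRNAs tested (called at adjusted p under 0.05). At an unadjusted p under 0.05 the count was also 0 of 4, and DESeq2 and limma called 0 of 4 as well. Of all miRNAs 36 were called, 4.75% of those tested, 19 higher and 17 lower, and 196 had an unadjusted p under 0.05. With the replicate number as a block 82 were called, and the 4 arms were still not among them. Leaving out 1 library moved the count of 36 to 95, 6 and 7 (combined treatment replicates 1, 2 and 3 left out) and to 0, 55 and 22 (monotreatment replicates 1, 2 and 3 left out), and none of the 4 arms was called in any of these.

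The major arms had slightly lower means with IFN-γ. MiR-191-5p averaged 4851 ± 1160 CPM with IFN-γ and 5336 ± 624 CPM without it (SD, n = 3 each), and its log2 fold change was −0.14 (standard error 0.24, 95% interval −0.67 to 0.40, edgeR adjusted p = 0.753). MiR-425-5p averaged 13417 ± 4588 CPM with IFN-γ and 16370 ± 5590 CPM without it (SD, n = 3 each), and its log2 fold change was −0.29 (standard error 0.32, 95% interval −1.001 to 0.427, edgeR adjusted p = 0.627). These intervals leave room for a change in either direction, down to 0.628 and up to 1.32 of the monotreatment level for miR-191-5p, and down to 0.4995 and up to 1.34 for miR-425-5p.

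The minor arms had higher means with IFN-γ. MiR-425-3p averaged 229.5 ± 16.3 CPM with IFN-γ and 169 ± 27.5 CPM without it (SD, n = 3 each), and its log2 fold change was 0.44 (standard error 0.22, 95% interval −0.05 to 0.94, unadjusted p = 0.0735, edgeR adjusted p = 0.237). MiR-191-3p averaged 15.9 ± 3.39 CPM with IFN-γ and 10.9 ± 2.10 CPM without it (SD, n = 3 each), and its log2 fold change was 0.54 (standard error 0.30, 95% interval −0.13 to 1.22, edgeR adjusted p = 0.280). The fold changes of miR-191-3p and miR-425-3p lay above 78.8% and 74.7% of all those tested. With the replicate number as a block the interval of miR-425-3p no longer included 0 (0.03 to 0.88, unadjusted p = 0.0406), while its edgeR adjusted p was 0.155. In bulk RNA, a different mix of cells and a different amount of a miRNA per cell cannot be told apart.

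**Figure D2:**
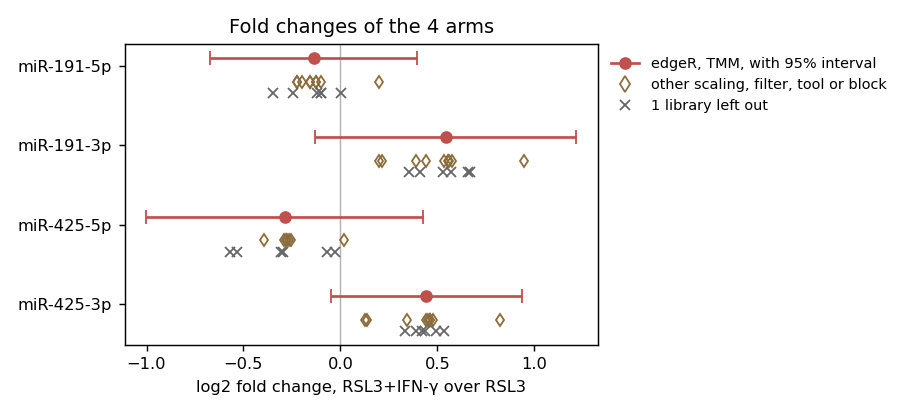
Log2 fold change of RSL3+IFN-γ over RSL3 for each arm (red, with the 95% interval from edgeR), under other scalings, filters, tools or the replicate block (open diamonds) and with 1 library left out (crosses). The 4 intervals include 0, and the 2 minor arms stay right of 0 under each alternative plotted.

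The sign of the fold change of both major arms depended on the scaling. A change of scaling shifts all miRNAs by nearly the same amount. Values relative to the median of all miRNAs therefore stay nearly the same by construction, and they are given as a description only. Over all miRNAs tested the median log2 fold change was −0.04 under TMM, 0.33 under plain library totals and −0.13 under upper-quartile factors. Relative to that median, miR-191-5p stood at −0.10, −0.14 and −0.09 under these 3 scalings. MiR-425-5p stood at −0.25, −0.31 and −0.26. On the other side of the median, miR-191-3p stood at 0.58, 0.61 and 0.58, and miR-425-3p at 0.48, 0.49 and 0.47. With library totals only, the log2 fold changes themselves were 0.20 for miR-191-5p and 0.02 for miR-425-5p. Both minor arms had an unadjusted p under 0.05 with totals, and edgeR adjusted p-values of 0.105 (miR-191-3p) and 0.0837 (miR-425-3p). With totals 71 of all miRNAs were called, and how many had an unadjusted p under 0.05 was not counted.

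The minor arms are rich in G and C, 63.6% each, against 52.2% in miR-191-5p. Among the 64 tested miRNAs within 3 percentage points of 63.6%, the median log2 fold change was 0.21 and 67.2% were positive, a window chosen after the values were seen. Among the 151 within 3 points of 52.2%, the median was 0.03 and 51.7% were positive. With the trend over GC content removed, the log2 fold change was 0.20 for miR-191-3p and 0.13 for miR-425-3p, against 0.54 and 0.44 with it left in.

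A ratio of the arms of 1 hairpin within a library needs no scaling between libraries. Both hairpins were read almost entirely from the 5p arm in each group. Of the reads of miR-191, the 3p arm held 0.214%, 0.515% and 0.321% in the combined treatment libraries, against 0.190%, 0.193% and 0.226% in the RSL3 monotreatment libraries. Replicate 2 with IFN-γ stood highest (exact 95% interval 0.425% to 0.618%), and its interval did not reach that of any monotreatment library, the nearest of which ended at 0.283%. Such intervals cover counting error only, since reads after PCR are not independent molecules. In units of reads, there were 467, 193 and 311 reads of miR-191-5p per read of miR-191-3p with IFN-γ and 524, 517 and 442 without it.

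Of the reads of miR-425, the 3p arm held 1.16%, 2.59% and 1.77% in the combined treatment libraries, against 0.877%, 0.760% and 1.74% in the RSL3 monotreatment libraries. Replicate 2 with IFN-γ was again the highest, and replicate 3 without IFN-γ lay above replicate 1 with it, so the groups overlapped. Within each replicate number the 3p share was higher with IFN-γ, for miR-425 and for miR-191 alike. For miR-425 the exact intervals of both treatments overlapped in replicate 3 only (1.69% to 1.87% with IFN-γ, 1.64% to 1.85% without it). For miR-191 they overlapped in replicates 1 and 3 but not in replicate 2. These intervals cover counting error only, and for miR-425 those of monotreatment replicates 2 (0.707% to 0.816%) and 3 did not overlap either. Separate intervals within a number therefore do not by themselves mark a difference between treatments. An exact permutation of the treatment within numbers gave p = 0.25 for each hairpin, the smallest it can give. How many of all hairpins tested were higher with IFN-γ in every number was not counted. There were 85.3, 37.6 and 55.4 reads of miR-425-5p per read of miR-425-3p with IFN-γ and 113, 131 and 56.4 without it.

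Neither arm ratio passed the test. The log2 ratio of 3p over 5p reads was −8.24 ± 0.63 with IFN-γ and −8.93 ± 0.13 without it for miR-191 (SD, n = 3 each), a difference of 0.69 (standard error 0.41, 95% interval −0.23 to 1.62, limma adjusted p = 0.388). For miR-425 it was −5.81 ± 0.59 with IFN-γ and −6.55 ± 0.65 without it (SD, n = 3 each), a difference of 0.74 (standard error 0.47, 95% interval −0.33 to 1.81, limma adjusted p = 0.406). Limma called 0.0% of the 181 hairpins tested, 35 of which had an unadjusted p under 0.05, and 22.7% of them had groups that did not overlap, against 0 of these 2. Over the 181 hairpins 102 differences were positive and their median was 0.13, and those of miR-191 and miR-425 lay above 76.2% and 78.5% of them. Without replicate 2 of the combined treatment the differences were 0.37 for miR-191 and 0.45 for miR-425. That library also had the highest TMM factor (1.33), and it held the highest arm ratio for 37 of the 181 hairpins, against 43 for replicate 3 of the combined treatment.

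Hairpins read mainly from the 5p arm, as miR-191 and miR-425 are, were set beside the others, with a bound on the mean log2 ratio of 2 on either side that was chosen after the values were seen. Of the 69 hairpins with a mostly 5p product, 45 had a positive difference, with a median of 0.34. Of the 50 with a mostly 3p product, 23 had a positive difference, with a median of −0.04. Of the 62 between these bounds, 34 had a positive difference, with a median of 0.09. The differences of 0.69 for miR-191 and 0.74 for miR-425 are above the median of their class, a description with no test.

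The 2 hairpins are annotated in the same intron of DALRD3, and the RNA of the host gene was not measured here. The ratio of their major arms was not constant. There were 2.96, 2.33 and 2.87 reads of miR-425-5p per read of miR-191-5p in the combined treatment libraries, against 2.85, 4.79 and 1.90 in the RSL3 monotreatment libraries. The monotreatment libraries spanned the whole range, a factor of 2.52 between replicates 2 and 3, and the combined treatment libraries lay inside it. The mean log2 ratio was 1.435 ± 0.188 with IFN-γ and 1.57 ± 0.67 without it (SD, n = 3 each), a difference of −0.13 that did not exceed the spread (exact permutation test, two-sided, p = 0.9, smallest possible 0.1). Without replicate 2 of the monotreatment the difference was 0.22. The minor arms had 16.2, 11.97 and 16.1 reads of miR-425-3p per read of miR-191-3p with IFN-γ and 13.2, 19.0 and 14.9 without it, a log2 difference of −0.09 (exact permutation test, two-sided, p = 0.7), and the same monotreatment replicate was the highest.

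Ratios of 14 other miRNA pairs taken to share a primary transcript, chosen with earlier results known, were computed in the same way. MiR-16-5p and miR-29b-3p, in 1 pair each, are also made from another locus, so these ratios are not of a single transcript. The ratio of miR-425-5p to miR-191-5p was 4th of all 15 in its range over the 6 libraries, 2.52-fold, against a median of 2.22-fold over the other 14. By the size of the difference between groups it was 11th of 15, at 0.13, against a median size of 0.30. The other differences ran from −0.63 for miR-93-5p over miR-25-3p, from MCM7, to 1.06 for miR-452-5p over miR-224-5p, from GABRE, which rested on as few as 13 reads and was the only one without overlap between groups.

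Since miR-191-5p serves as a control in PCR, its spread and that of miR-425-5p were set beside 15 other miRNAs used in that way. Over the 6 libraries the SD of log2 CPM was 0.26 for miR-191-5p, 7th from the lowest of 17, and 0.48 for miR-425-5p, 14th of 17. MiR-423-3p had the lowest SD, 0.06, and miR-30e-5p the highest, 0.64. With library totals only, miR-191-5p had the lowest SD of the 17, 0.15, and miR-425-5p was 11th, at 0.38. The place of miR-191-5p as an even miRNA in these cells thus moved with the scaling.

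Among all miRNAs of at least 1000 CPM, miR-191-5p ranked 23 of 80 for a low SD under TMM, 4 of 81 under plain library totals and 27 of 79 under upper-quartile factors. MiR-425-5p ranked 55, 39 and 58 under the same 3 scalings. The highest level of miR-191-5p was 1.61 times its lowest over the 6 libraries, against 2.51 times for miR-425-5p. Of the 15 other control miRNAs, edgeR called 0 higher and 0 lower (3 at an unadjusted p under 0.05), limma called 0, and miR-103a-3p alone was called by DESeq2, with the replicate block, with no filter on low counts, with a filter at a mean of 10 CPM, without replicate 1 of the combined treatment and without replicate 2 of the monotreatment. Their median log2 fold change was −0.09, against −0.04 for all miRNAs tested. The largest difference among them was that of miR-103a-3p, at 5910 CPM with IFN-γ and 10576 CPM without it, with a log2 fold change of −0.84 (edgeR adjusted p = 0.0648).

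**Figure D3:**
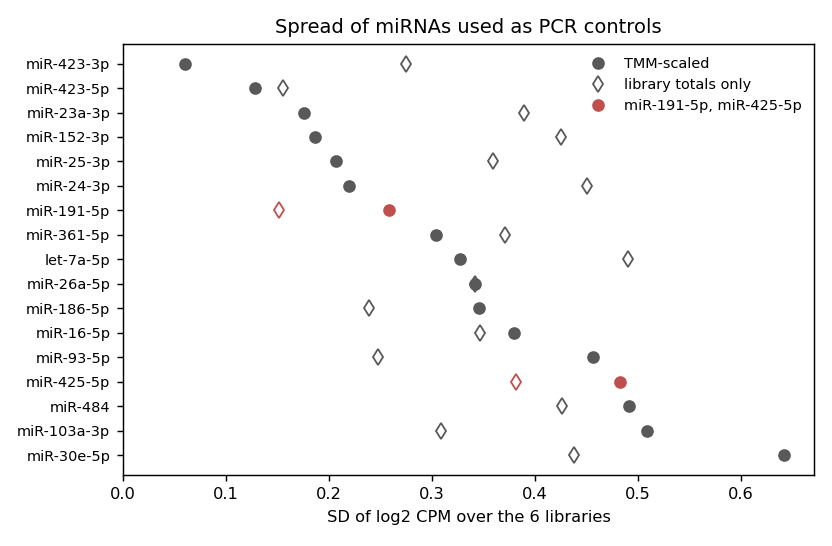
SD of log2 CPM over the 6 libraries for miR-191-5p and miR-425-5p (red) and 15 other miRNAs used as PCR controls (grey), with TMM scaling (filled circles) and with library totals only (open diamonds). MiR-191-5p lies 7th of 17 with TMM, at 0.26, and lowest with totals only, at 0.15.

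The miRNAs closest in pattern to each major arm were found by the root mean square difference of log2 CPM, each centred on its mean over the 6 libraries, among 204 candidates of at least 100 CPM. For miR-191-5p these were miR-1303 (0.06), miR-125a-5p (0.10), miR-330-3p (0.11), miR-30c-5p (0.11) and miR-29a-3p (0.13). MiR-425-5p, from the same intron, came 102nd for miR-191-5p, at 0.41, and miR-425-3p came 117th, at 0.43. For miR-425-5p the closest were miR-365a-5p (0.09), miR-320a-3p (0.16), miR-516b-5p (0.21), miR-501-5p (0.22) and miR-1283 (0.25). MiR-191-5p came 34th for miR-425-5p, and miR-425-3p, the other arm of its own hairpin, came 131st, at 0.63. The 6 libraries and their scaling are shared by all these distances, which are descriptions only.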

How the data were processed

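The authors' deposited table holds, for each of the 6 libraries, raw read counts per mature miRNA and a normalized signal that the authors obtained by dividing counts by a library total. Only the raw counts were used. Further deposited columns give the authors' own comparison (log2 ratio of the groups, linear fold, p-value), and none of these was used. The tools named in the submitters' processing notes are bcl2fastq, Bowtie 1.1.1 and edgeR, with GRCh38 as the genome build. How multi-mapping reads were counted is, like the miRBase release, not given in the sources used. The labels name a small RNA library kit and the methods a directional RNA kit.

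The main test was that of edgeR 4.0.16 in R 4.3.3 (TMM, quasi-likelihood, two-sided, Benjamini-Hochberg) over the 758 of 1596 miRNAs kept by its filter (minimum count 10, minimum total 15). DESeq2 1.42.0 and limma 3.58.1 (log2 of CPM plus 5) were alternatives. Arm ratios, with 0.5 reads added to each arm, were tested with limma over the 181 hairpins whose arms each averaged 10 or more reads. Exact permutation tests went through every possible arrangement of the treatment, and shares carry exact (Clopper-Pearson) 95% intervals from scipy 1.17.1. GC content was known for 679 of the 758 miRNAs.

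Groups share replicate numbers, and no source says what these stand for. Across miRNAs, libraries with the same number deviated from their group means with correlations of 0.227, 0.217 and 0.207, each above a set bound of 0.1. Libraries of different numbers were not compared directly. Because deviations from a group mean cancel out within the group, positive values here force the covariances between different numbers to be negative on average. Libraries with the same number were thus more alike on average, but the values do not settle whether the numbers mark pairs. The main tests used no block, and the replicate block was an alternative. Samples were grouped by the treatment in the labels, and all per-sample columns could be assigned. The members, the lists of control miRNAs, of shared transcripts and of markers, and the motifs were chosen with earlier results of these data known. The miRNAs named are the members, those lists, and the 5 closest in pattern to each 5p member.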

Additional observations from a re-analysis of the deposited data

How the results depend on the processing

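None of the 4 arms was called under any of the 15 alternatives (GC fits gave values for 3 arms). The log2 fold change stayed positive in all 15 for miR-191-3p (0.20 to 0.94) and miR-425-3p (0.13 to 0.82), as did the arm ratio differences in all 9 of theirs. With library totals only, miR-191-5p was at 0.20 and miR-425-5p at 0.0198, and without replicate 2 of the combined treatment miR-191-5p was at 0.0046. Leaving out 1 library at a time gave −0.35 to 0.0046 for miR-191-5p, −0.57 to −0.03 for miR-425-5p, −0.45 to 0.22 for the log2 ratio of miR-425-5p to miR-191-5p, and −0.12 to 0.36 percentage points for the share of reads, which was −0.337 with TMM-scaled counts. The number of miRNAs called, 36, was 71 with library totals only, 96 with DESeq2, 106 with no filter on low counts, 82 with the replicate block, 14 with the GC trend removed and the replicate block, and 0 to 95 with 1 library left out. The replicate block changed no call among the 4 arms. The causes were not tested. MiR-191-3p rests on 40 to 115 reads in a library, the fewest of the 4 arms.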
